A study of Mus musculus with 6 samples.

Results

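Genes that the transcription factor p53 is known to switch on were followed in mouse lung mesenchyme. The list held 10 genes, Mdm2, Ccng1, Bax, Bbc3, Pmaip1, Trp53inp1, Sesn1, Sesn2, Phlda3 and Zmat3. They were taken by symbol, with no threshold on a measured value, from the 48397 gene symbols in each count file. All 10 passed the low-count filter and were among the 16198 genes tested.

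The libraries were made from live EGFP-positive cells sorted from dissociated lungs of PdgfraEGFP/+ pups at postnatal day 8. At E18.5 their PdgfraEGFP/+ dams had been injected intraperitoneally with 5E1, an antibody against hedgehog (HH) ligands, in one group (3 libraries) or with control IgG in the other (3 libraries). Pups of both groups carried the reporter allele, the antibody went to the dam, and cells were selected by reporter expression at sorting. Transcripts of other cell types were also present, as given below. Nothing in the labels tells if one group's libraries stem from different pups, pools or litters, and the p-values therefore speak for the spread among these 6 libraries alone.

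p53 is held at a low level in unstressed cells because MDM2, itself a p53 product, marks it for breakdown. DNA damage and other stresses release it, and it then raises genes that halt the cell cycle, start apoptosis, limit growth signalling or restore Mdm2. Many of these genes also answer to other factors, among them FoxO factors and the stress factor ATF4, so the level of 1 target is not by itself a reading of p53 activity.

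Gene reads numbered 18857199 to 34318583 per 5E1 library and 16958433 to 28405457 per IgG library. The 10 genes took 7543 to 16116 of them per 5E1 library and 6759 to 10946 per IgG library. The hedgehog targets Ptch1, Hhip and Gli1 were all lower in 5E1, with log2 differences of -2.19, -2.37 and -1.12 and edgeR adjusted p of at most 0.00109. Pdgfra, the reporter's own gene, averaged 645 ± 73.3 reads per 1000000 gene reads (CPM) in 5E1 and 502 ± 77.5 CPM in IgG (SD, n = 3 each). Every 5E1 library lay above every IgG library, but the log2 fold change of 0.36 did not pass (edgeR, adjusted p 0.0742). Pdgfra was called higher by DESeq2 (adjusted p 0.0300). In edgeR it was called when low-count genes were kept (0.0118) or when the fit allowed for low Y-linked reads (0.0307). What a shift in the sorted cells did to the p53 target values was not tested. Unaligned reads made up 20.4% to 36.3% of a 5E1 library and 31.3% to 42.9% of an IgG library. In each group 1 library had only 2 reads of Y-linked genes and the others had 3592 to 6913. The 8 mesenchymal markers summed to 64546 to 112439 CPM in 5E1 and 50806 to 69113 CPM in IgG, most of it from Col1a1, Col1a2 and Col3a1. Of the 8, Col3a1 and Dcn were called higher (edgeR, adjusted p under 0.05) and 0 lower. Of all tested genes, 12.1% were called higher and 11.1% lower. With DESeq2 or no low-count filter 6 of the 8 were higher, and with 1 library left out 0 to 4. Of these markers, those other than Pdgfra were named after their values were seen.

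Of the 10 p53 target genes, Trp53inp1 and Sesn1 rose in 5E1, each a little under 2-fold, and the other 8 did not pass the test. In bulk RNA, fewer cells of a type and less RNA per cell cannot be told apart. With edgeR's quasi-likelihood test and Benjamini-Hochberg adjustment over all genes, 2 of 10 were called higher and 0 lower, against 12.1% of all tested genes called higher, 11.1% called lower and 23.2% called in either direction. At an unadjusted p under 0.05 the counts were also 2 and 0, as they were with DESeq2 and with limma-voom. The share of genes called was thus near that of all genes and is no result about the list. Without IgG replicate 3, 1 gene was called higher. The CPM values of 5E1 and IgG did not overlap for 3 of the 10 genes, against 42.2% of all tested genes. The median log2 fold change, 5E1 over IgG, was 0.053 over the 10 genes and 0.00087 over all genes tested. With library size alone as the scaling, which moved the median of all genes to -0.14 and called 1312 genes higher and 3274 lower, the median of the 10 was -0.089. Single genes ran from -0.36 for Zmat3 to 0.90 for Trp53inp1. The 10 genes together took 410, 480 and 542 CPM in 5E1 replicates 1, 2 and 3, against 373, 379 and 356 CPM in the IgG replicates. After the values were seen, Trp53inp1 and Sesn1 were set apart: they took 243 ± 61.8 CPM in 5E1 and 131 ± 9.63 CPM in IgG, and the other 8 genes 234 ± 9.36 CPM in 5E1 and 238 ± 3.41 CPM in IgG (SD, n = 3 each).

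**Figure D1:**
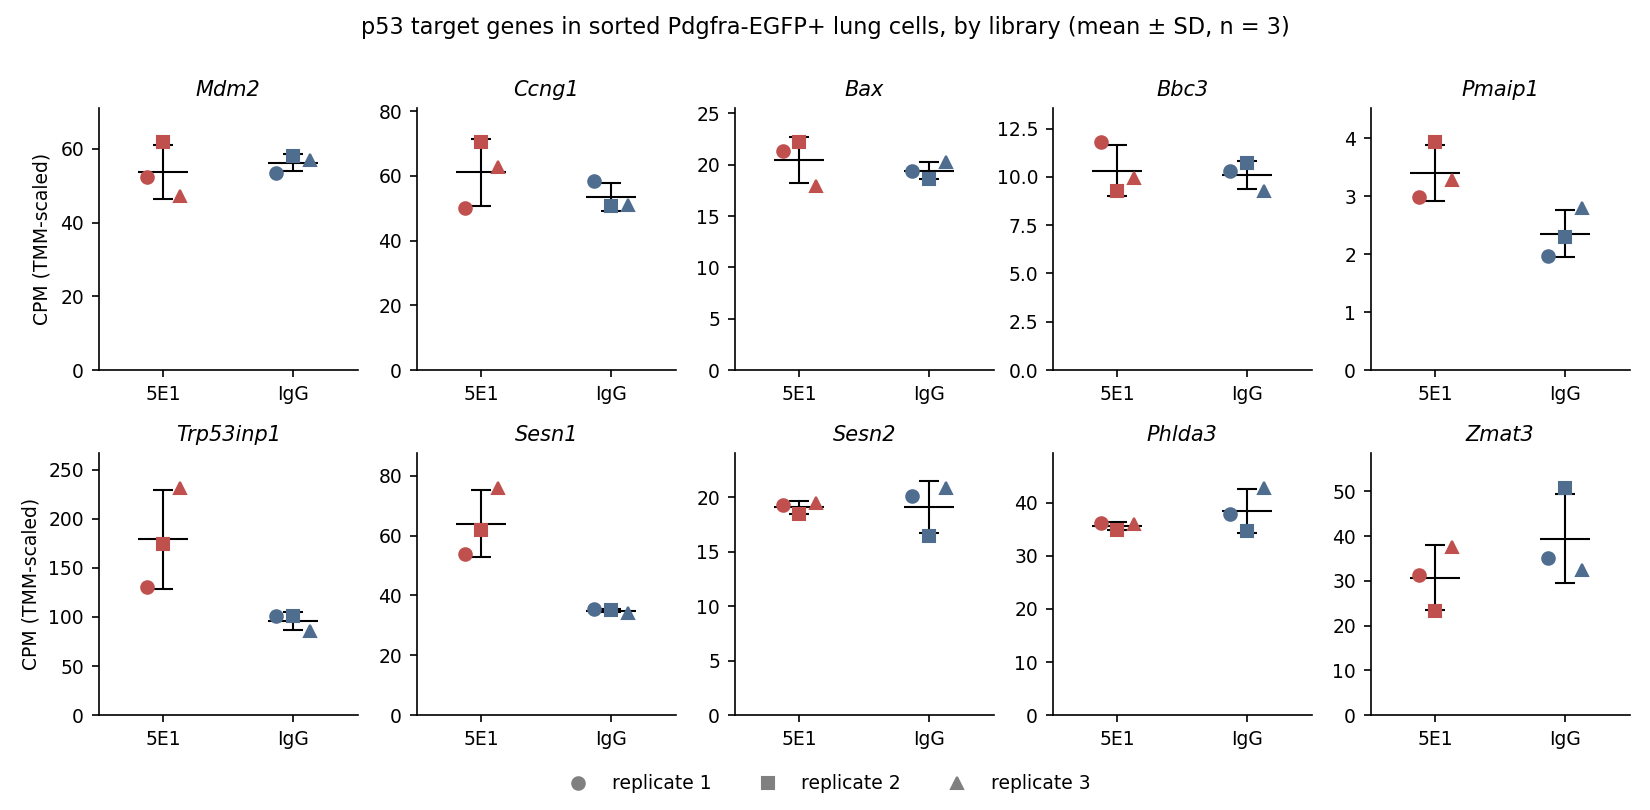
CPM of each of the 10 p53 target genes in every library, with 5E1 left of IgG, symbols for the replicate and black bars for mean ± SD (n = 3 each). The 5E1 libraries lie above all IgG libraries for Trp53inp1, Sesn1 and Pmaip1, and the groups overlap for the other 7 genes.

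**Figure D2:**
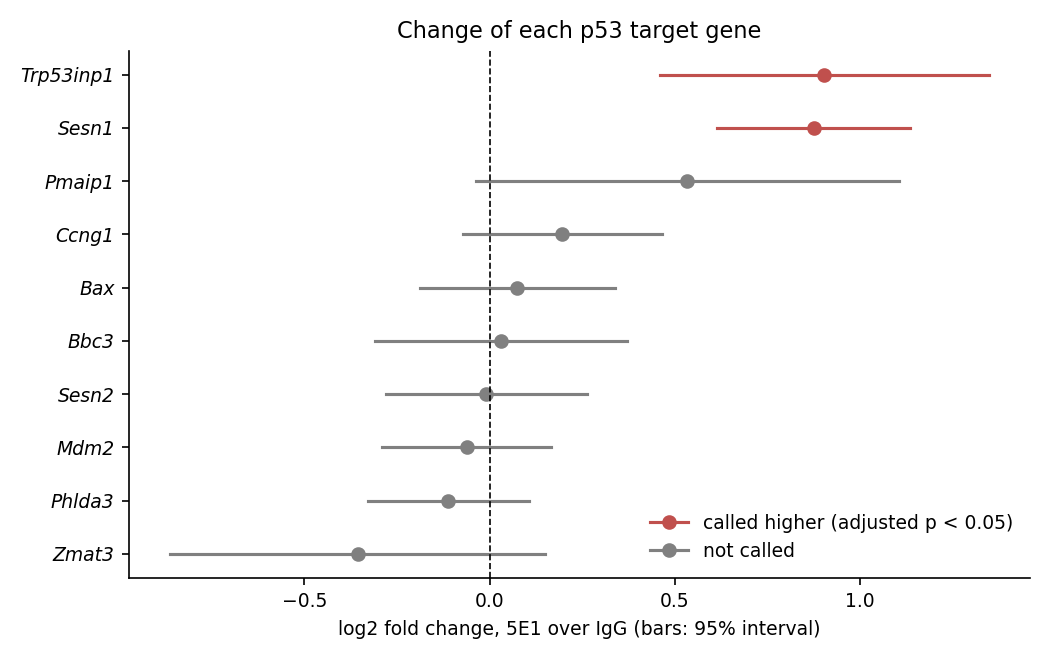
Log2 fold change, 5E1 over IgG, of each p53 target gene, with its 95% interval from the edgeR fit. The intervals of Trp53inp1 (from 0.46) and Sesn1 (from 0.61) lie above 0, and those of the other 8 genes include 0.

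Trp53inp1 encodes a nuclear protein that helps p53 activation and takes part in autophagy. It lies on chromosome 4 of GRCm38 (11156431 to 11174379, plus strand). Its level was 131, 174 and 232 CPM in 5E1 replicates 1, 2 and 3, against 101, 101 and 85.2 CPM in IgG replicates 1, 2 and 3. Every 5E1 library was above every IgG library, and the 5E1 libraries were spread more widely (coefficient of variation 28.3%, against 9.47% in IgG). On the log2 scale 5E1 exceeded IgG by 0.90 (SE 0.19, 95% interval 0.46 to 1.35), or 1.87-fold (edgeR, adjusted p 0.0131). Leaving out IgG replicate 3 ended the call, at a log2 fold change of 0.82 and an edgeR adjusted p of 0.0578. Without 5E1 replicate 3, the highest library, the log2 fold change was 0.67.

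Sesn1 encodes sestrin 1, a protein that restrains the growth kinase complex mTORC1. It lies on chromosome 10 (41809935 to 41908424, plus strand). Its level was 53.9, 61.9 and 76.0 CPM in 5E1 replicates 1, 2 and 3, against 35.3, 35.2 and 34.3 CPM in IgG replicates 1, 2 and 3. The IgG libraries lay close together and every 5E1 library lay above them. As for Trp53inp1, replicate 3 was the highest and replicate 1 the lowest of the 5E1 libraries. On the log2 scale 5E1 exceeded IgG by 0.87 (SE 0.12), or 1.83-fold with a 95% interval of 1.53-fold to 2.195-fold (edgeR, adjusted p 0.000659). It was called under all 15 alternatives, where the adjusted p was at most 0.00581.

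Sesn2, which encodes the related sestrin 2, measured 19.3, 18.4 and 19.5 CPM in 5E1 and 20.1, 16.4 and 20.9 CPM in IgG. The 5E1 libraries lay within the IgG range. The difference was -0.0092 on the log2 scale, with a 95% interval of -0.28 to 0.26 (edgeR, adjusted p 0.966). Sesn3, the remaining sestrin gene, averaged 85.1 ± 22.5 CPM in 5E1 and 101 ± 10.4 CPM in IgG (log2 fold change -0.25, adjusted p 0.366). The difference between the sestrins was read within each library, where scaling drops out. There were 2.79, 3.37 and 3.904 reads of Sesn1 per read of Sesn2 in 5E1, against 1.76, 2.15 and 1.64 in IgG. Per read of Sesn3 there were 0.633, 0.989 and 0.706 reads of Sesn1 in 5E1, against 0.313, 0.358 and 0.371 in IgG. The groups did not overlap in either ratio, and the exact permutation p was 0.1 for each (two-sided), the smallest that 3 against 3 libraries allow.

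The sestrin promoters show how the 2 genes differ at their starts. RefSeq gives Sesn1 an outer start and a second, inner one within the gene, and Sesn2 a single start. The 250 bases before each start (RefSeq, GRCm38.p6) are printed in lower case, with capitals for a match to the p53 decamer. That decamer is 1 arm of the p53 binding consensus, which joins 2 such arms. The stretches are chr10:41810324-41810573 (plus strand) for the outer Sesn1 start, chr10:41887189-41887438 (plus strand) for the inner Sesn1 start and chr4:132510457-132510706 (minus strand) for Sesn2.

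Sesn1 outer start: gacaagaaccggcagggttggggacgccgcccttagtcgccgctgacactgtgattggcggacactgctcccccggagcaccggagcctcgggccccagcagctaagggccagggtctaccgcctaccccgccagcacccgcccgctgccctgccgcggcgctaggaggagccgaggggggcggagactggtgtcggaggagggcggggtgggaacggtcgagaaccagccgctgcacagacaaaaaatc

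Sesn1 inner start: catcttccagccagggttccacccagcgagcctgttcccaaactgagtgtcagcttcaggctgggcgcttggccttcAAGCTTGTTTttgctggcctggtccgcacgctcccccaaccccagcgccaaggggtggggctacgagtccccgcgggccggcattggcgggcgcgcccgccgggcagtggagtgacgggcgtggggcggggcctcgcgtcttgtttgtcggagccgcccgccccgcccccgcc

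Sesn2 start: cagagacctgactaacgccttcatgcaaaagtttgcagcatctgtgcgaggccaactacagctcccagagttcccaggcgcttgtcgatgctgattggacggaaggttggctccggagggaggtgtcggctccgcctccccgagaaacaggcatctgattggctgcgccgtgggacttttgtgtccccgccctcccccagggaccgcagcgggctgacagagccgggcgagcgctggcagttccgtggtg

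The inner Sesn1 stretch held 1 decamer, its first base 173 bases before the start, and the outer Sesn1 stretch and the Sesn2 stretch held none. The counts are per gene, so reads from the outer and inner Sesn1 starts were not separated. Windows of 300 bases (250 before and 50 after a start) were in the table for 7 of the 10 genes, 10 windows in all. A decamer occurred in 4 of the 10 windows, those of Mdm2, Ccng1 and Bax and the inner Sesn1 start, against 8.36% of 32851 windows of all genes. A pair of decamers at most 13 bases apart occurred in none of the 10 windows and in 0.0731% of all windows. The decamer reads the same on both strands as a pattern. Only exact matches were counted, so arms with a mismatch were missed. A match is a description of the letters, not evidence of binding.

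Mdm2, the gene of the ligase that marks p53 for breakdown, is the usual first readout of p53. It measured 52.3, 61.7 and 47.3 CPM in 5E1 and 53.6, 58.1 and 57.0 CPM in IgG. The highest and the lowest of the 6 values were both 5E1 libraries. The difference was -0.062 on the log2 scale, with a 95% interval of -0.29 to 0.17 (edgeR, adjusted p 0.711). As a fold, 5E1 over IgG, that interval runs from 0.817-fold to 1.12-fold. Ccng1 encodes cyclin G1, which recruits a phosphatase to MDM2. It measured 50.1, 70.4 and 62.8 CPM in 5E1 and 58.5, 50.8 and 51.0 CPM in IgG, so 5E1 replicate 1 lay below all IgG libraries and the other 5E1 libraries above them. The difference was 0.196 on the log2 scale (95% interval -0.073 to 0.46), with an edgeR adjusted p of 0.275 that was 0.0519 without 5E1 replicate 1.

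Mdm2 lies on chromosome 10 (117688875 to 117710758), Ccng1 on chromosome 11 (40748552 to 40755311) and Bax on chromosome 7 (45461697 to 45466898), all on the minus strand. Each of these 3 genes has 1 exact match to the decamer in its window, a single arm of the p53 consensus. Arms with mismatches were not searched for. None of the 3 was called, and sequence outside the windows was not searched. The 60 bases around each decamer are shown. They are chr10:117710910-117710969 for Mdm2, chr11:40755437-40755496 for Ccng1 and chr7:45467065-45467124 for Bax, each printed on its gene's strand with the decamer in capitals.

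Mdm2: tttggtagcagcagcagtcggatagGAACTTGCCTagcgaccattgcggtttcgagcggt

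Ccng1: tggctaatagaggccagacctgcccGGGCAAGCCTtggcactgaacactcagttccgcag

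Bax: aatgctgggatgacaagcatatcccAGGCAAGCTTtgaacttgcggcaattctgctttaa

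The first base of the decamer lay 186 bases before the start in Mdm2, 185 in Ccng1 and 201 in Bax. Windows were not in the table for Trp53inp1, Pmaip1 and Zmat3.

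Genes of the apoptotic arm were not called. Bax encodes a pore-forming protein of the outer mitochondrial membrane. It measured 21.3, 22.2 and 17.9 CPM in 5E1 and 19.4, 18.6 and 20.2 CPM in IgG (log2 fold change 0.075, 95% interval -0.19 to 0.34, edgeR adjusted p 0.696). The 5E1 values lay on both sides of the IgG values. In GENCODE M21, 192 of its 1576 exon bases are shared with Gm45808 on the same strand, so reads there may have been counted as ambiguous. Bbc3 (PUMA), a BH3-only protein gene that frees BAX from its inhibitors, measured 11.8, 9.26 and 9.94 CPM in 5E1 and 10.3, 10.7 and 9.29 CPM in IgG. The log2 difference was 0.031 (95% interval -0.31 to 0.37, edgeR adjusted p 0.911). Pmaip1 (NOXA), another BH3-only gene, was the lowest of the 10, with 55, 132 and 89 reads in the 5E1 libraries and 58, 41 and 77 reads in the IgG libraries. That came to 2.99, 3.93 and 3.28 CPM in 5E1 and 1.98, 2.296 and 2.795 CPM in IgG. Its groups did not overlap, but the log2 difference of 0.53 did not pass (edgeR, adjusted p 0.162). The 95% interval of the fold ran from 0.974 to 2.15, so no change and a 2-fold difference both lie within it at this depth.

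Phlda3 encodes a protein that competes with the kinase AKT for membrane lipid. It measured 36.2, 34.8 and 35.9 CPM in 5E1 and 37.8, 34.7 and 42.8 CPM in IgG. The 5E1 values lay within the IgG range, and the log2 fold change was -0.11 (95% interval -0.33 to 0.11, edgeR adjusted p 0.453). Zmat3 encodes a zinc finger RNA-binding protein. It measured 31.3, 23.3 and 37.7 CPM in 5E1 and 35.1, 50.8 and 32.3 CPM in IgG. The groups overlapped, with the lowest value in 5E1 replicate 2 and the highest in IgG replicate 2. The log2 difference was -0.36 (95% interval -0.86 to 0.15, edgeR adjusted p 0.283). Without a low-count filter it was called lower, with an adjusted p of 0.0132.

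Per kilobase of exon (RPKM, on GENCODE M21 exon lengths), the order of the genes differed between the groups. In 5E1, Trp53inp1 was highest at 27.6 RPKM, followed by Phlda3 (22.8), Ccng1 (17.4), Sesn1 (16.1), Bax (12.98) and Mdm2 (10.6). In IgG, Phlda3 was highest at 24.6 RPKM, followed by Ccng1 (15.2), Trp53inp1 (14.8), Bax (12.3), Mdm2 (11.1) and Sesn1 (8.77). Sesn2, Bbc3, Zmat3 and Pmaip1 were the lowest 4 in both groups, in this order, from 5.48 to 1.24 RPKM in 5E1 and from 5.504 to 0.862 RPKM in IgG. Sesn2 lies on chromosome 4 (132492032 to 132510501, minus strand), Bbc3 on chromosome 7 (16308393 to 16318205, plus strand), Phlda3 on chromosome 1 (135766119 to 135769136, plus strand) and Zmat3 on chromosome 3 (32334792 to 32366014, minus strand). The lengths join all annotated exons and may not match the isoforms in these cells.

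Relatives of the p53 targets that belong to the same protein families were then compared with them. They were chosen with the results of the 10 genes known. Of 8 tested relatives 1 was called higher and 3 lower, against 12.1% of all tested genes called higher and 11.1% called lower. Trp53inp2, the autophagy gene related to Trp53inp1, fell: it measured 94.3, 101 and 97.8 CPM in 5E1, against 149, 188 and 148 CPM in IgG. On the log2 scale that is -0.72 (SE 0.10, edgeR adjusted p 0.00089). The 2 relatives thus moved in opposite directions, and there were 1.39, 1.72 and 2.37 reads of Trp53inp1 per read of Trp53inp2 in 5E1 and 0.677, 0.537 and 0.575 in IgG. In the 5E1 libraries Trp53inp1 had the more reads, and in the IgG libraries Trp53inp2 did.

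Bak1, which encodes the other main pore-forming partner of BAX, fell to 23.2 ± 1.64 CPM in 5E1, against 30.2 ± 0.546 CPM in IgG (SD, n = 3 each). The log2 difference was -0.38 (edgeR, adjusted p 0.0191). Bok, a further relative of Bax, also fell, with a log2 difference of -0.68 (edgeR, adjusted p 0.0294). The call of Bak1 ended without 5E1 replicate 3 (0.0729) or IgG replicate 1 (0.0765) or 2 (0.0534), and that of Bok without 5E1 replicate 3 (0.0976) or any IgG replicate (0.0709 to 0.0815). In GENCODE M21, 614 of the 2407 exon bases of Bak1 are shared with Ggnbp1 on the opposite strand, and the strand setting of the counts is not given in the sources used here. Reads of Bax per read of Bak1 were 0.854, 0.964 and 0.825 in 5E1 and 0.631, 0.619 and 0.681 in IgG. Mdm4, which encodes an MDM2 relative that masks p53, averaged 169 ± 11.04 CPM in 5E1 and 148 ± 11.05 CPM in IgG (log2 fold change 0.195, edgeR adjusted p 0.146). Reads of Mdm2 per read of Mdm4 were 0.328, 0.341 and 0.284 in 5E1 and 0.363, 0.366 and 0.417 in IgG. Ccng2, the relative of Ccng1, averaged 95.3 ± 4.47 CPM in 5E1 and 95.6 ± 7.20 CPM in IgG (edgeR adjusted p 0.982), and Phlda1, of the Phlda3 family, 84.9 ± 24.2 CPM in 5E1 and 74.7 ± 7.81 CPM in IgG (adjusted p 0.522). Zmat4, a low relative of Zmat3, rose to 6.82 ± 2.43 CPM in 5E1, against 1.88 ± 0.0774 CPM in IgG (log2 fold change 1.87, edgeR adjusted p 0.00109). Across the 11 pairs formed, the ratios of 5E1 and IgG did not overlap in 7. Each of these had an exact permutation p of 0.1, the smallest possible, and 0.157 after Benjamini-Hochberg adjustment over the pairs. All of them but Mdm2 with Mdm4 hold a gene that was called by itself. Single genes did not overlap in 42.2% of all those tested. The share over pairs of other genes was not computed, so the count of 7 is no result about the pairs.

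**Figure D3:**
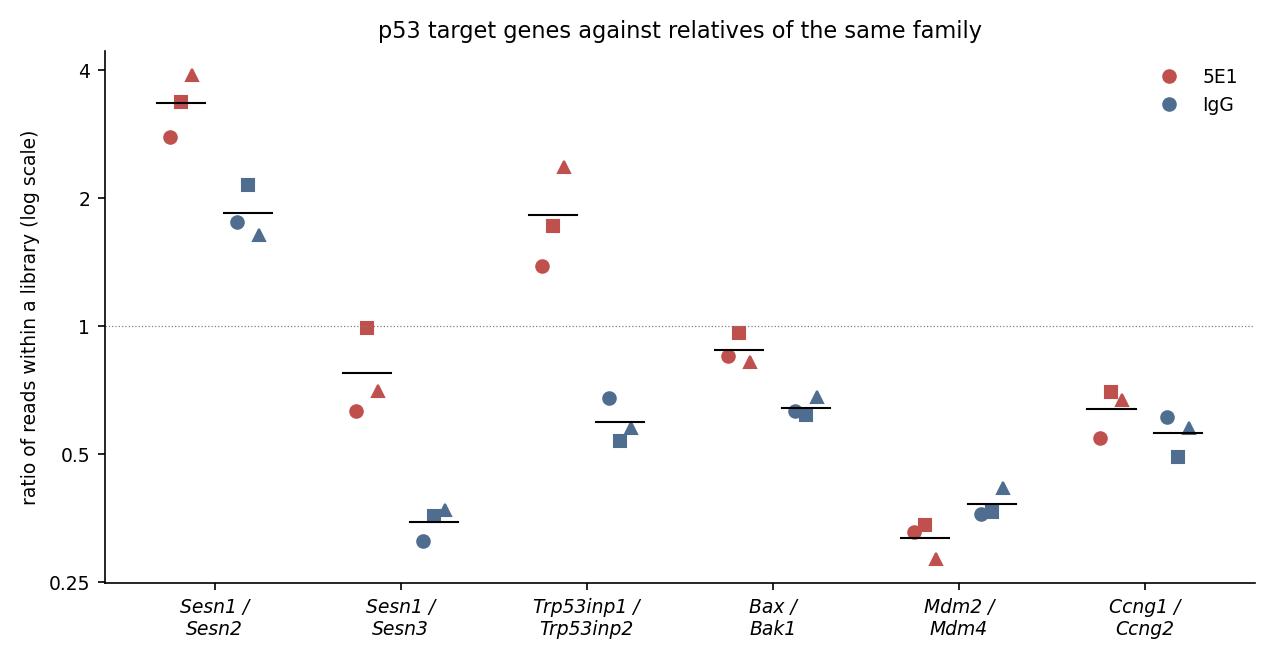
Reads of a p53 target gene per read of a relative within each library, on a log axis, for 6 of the 11 pairs, with 5E1 left of IgG, symbols for the replicate and a bar for the mean. The groups are apart for both Sesn1 pairs, Trp53inp1 with Trp53inp2, Bax with Bak1 and Mdm2 with Mdm4, and overlap for Ccng1 with Ccng2. Of the pairs not shown, Bax with Bok and Zmat3 with Zmat4 are apart and the others overlap.

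Other known p53 targets were mixed. Of 30 tested, 7 rose, 3 fell and 20 did not pass, and the median difference was 0.104 on the log2 scale. Of all tested genes, 12.1% were called higher and 11.1% lower. Cdkn1a, which encodes the cell cycle inhibitor p21, measured 76.9, 120 and 101 CPM in 5E1, against 42.7, 30.8 and 41.1 CPM in IgG. Every 5E1 library lay above every IgG library, and the log2 difference of the means was 1.38 (SE 0.18, edgeR adjusted p 0.00151). Btg2, an antiproliferative gene that is also an immediate early gene, rose to 1736 ± 355 CPM in 5E1, against 754 ± 158 CPM in IgG (log2 fold change 1.20, adjusted p 0.00202). Polk, a gene of a DNA polymerase that copies past damage, had a log2 fold change of 0.65 and Plk3, a stress-responsive kinase gene, one of 0.47. The death receptor gene Fas had a log2 fold change of 0.65. Ak1, an adenylate kinase gene, fell to 23.4 ± 4.48 CPM in 5E1, against 37.0 ± 1.45 CPM in IgG (log2 fold change -0.66, edgeR adjusted p 0.00598). Pidd1 and Ddit4l, named after their values were seen, were the others that fell. The call of Plk3 ended without IgG replicate 2 (0.0738) and with library size alone (0.0832), and that of Fas without IgG replicate 2 (0.0667) or 3 (0.0645). The number that rose was 3 without IgG replicate 2, 4 without IgG replicate 3 and 4 with library size alone, where 6 fell, and 1 fell without IgG replicate 1. Among the exon bases of Cdkn1a, 273 overlap an annotated transcript on the opposite strand.

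Trp53, the gene of p53 itself, measured 83.02, 67.4 and 66.1 CPM in 5E1, against 86.8, 86.4 and 86.3 CPM in IgG. Every 5E1 library lay below the IgG libraries. The log2 fold change of -0.26 (95% interval -0.48 to -0.051) did not pass over all genes, with an edgeR adjusted p of 0.0716. It passed with library size alone (0.0157), with no low-count filter (0.0338) and without 5E1 replicate 1 (0.0110). Among 21 tested genes of p53 and its regulators, 4 rose and 3 fell (1 and 7 with library size alone), with a median of -0.050 on the log2 scale. The shares over all tested genes were 12.1% higher and 11.1% lower. Cables1, the gene of an adaptor of cyclin-dependent kinases, had a log2 fold change of 0.70 and an edgeR adjusted p of 0.000661. Hipk2, the gene of a kinase that phosphorylates p53, had -0.52, Trp53bp1, a DNA repair scaffold gene, -0.396, and Chek1, a checkpoint kinase gene, -1.07, with edgeR adjusted p of 0.0106 to 0.0140. Crebbp, an acetyltransferase gene, had a log2 fold change of 0.47 and Rfwd2, a p53 ubiquitin ligase gene, one of 0.30. Sirt1, a deacetylase gene named after its values were seen, was the fourth that rose. The call of Trp53bp1 ended without 5E1 replicate 3 (0.0502) or IgG replicate 2 (0.0519), and that of Chek1 without IgG replicate 2 (0.05199). Crebbp was not called without 5E1 replicate 1 or 3 or IgG replicate 1 or 3 (0.0640 to 0.0964) or with library size alone (0.0510), and Rfwd2 without 5E1 replicate 2 or 3 or any IgG replicate (0.0578 to 0.135) or with library size alone (0.249). The number of regulators that rose was 1 without 5E1 replicate 3 or IgG replicate 1 or 3 and 2 without 5E1 replicate 2 or IgG replicate 2. The number that fell was 6 without 5E1 replicate 1 and 1 without IgG replicate 2. Cables1 shares 1314 exon bases and Trp53bp1 2130 with genes on the opposite strand.

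Lists of genes with other known inputs moved beside Sesn1 and Trp53inp1, and their part in those results was not tested. Sesn1 is also a FoxO target. Of 17 tested genes of FoxO factors and their targets 10 rose, and Sesn1 is itself among these 10. Of all tested genes, 12.1% were called higher and 11.1% lower. The median of the FoxO list, Sesn1 included, was 0.54 on the log2 scale against 0.00087 over all genes. Pdk4, a gene that turns cells from glucose to fat use, rose to 96.9 ± 24.9 CPM in 5E1, against 17.8 ± 2.73 CPM in IgG. Klf15, a metabolic transcription factor gene, rose to 27.5 ± 8.74 CPM in 5E1, against 4.31 ± 1.06 CPM in IgG. In both, as in Sesn1 and Trp53inp1, replicate 3 was the highest and replicate 1 the lowest of the 5E1 libraries. Of 13 glucocorticoid-responsive genes 12 rose (median 1.25), and the 3 with the smallest p had log2 fold changes of 5.54 (Zbtb16), 1.23 (Sgk1) and 1.25 (Klf9). Of 18 immediate early genes 16 rose (median 0.85), among them Myc at 1.24, Dusp1 at 1.19 and Klf6 at 0.80 on the log2 scale. The order of 5E1 libraries seen in Sesn1 and Trp53inp1 also held for Zbtb16, Klf9 and Klf6, and not for Sgk1, Myc and Dusp1. Among the other called genes of the FoxO list, Foxo1, Foxo3, Foxo4 and Irs2 had it, and Fbxo32, Bcl6 and Gabarapl1 lacked it. These genes were named after their values were seen. The order of 3 libraries cannot decide what part FoxO factors or the other inputs had.

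Sesn2 is also an ATF4 target. Of 18 tested genes on the ATF4 list, Sesn2 among them, 7 rose and 3 fell, the median being 0.38 on the log2 scale. Those that fell were Psat1 (log2 fold change -0.76), Mthfd2 (-0.59) and Aldh18a1 (-0.42), named after their values were seen. Without IgG replicate 2, 1 fell. Of all tested genes, 12.1% were called higher and 11.1% lower. Stc2, the gene of a secreted stress protein, rose to 52.1 ± 8.80 CPM in 5E1, against 14.7 ± 2.98 CPM in IgG. Nupr1, a stress-induced nuclear protein gene, rose by 0.81 on the log2 scale, and Ddit4, which encodes another restrainer of mTORC1 and is also on the glucocorticoid list, by 0.98. Genes of mitosis that the DREAM complex represses downstream of p53 and p21 fell in 18 of 20, the median being -1.97 on the log2 scale. Kif20a, a mitotic kinesin gene, fell to 7.35 ± 2.62 CPM in 5E1, against 28.9 ± 3.24 CPM in IgG. Plk1, a mitotic kinase gene, had a log2 fold change of -2.42 and Bub1b, a spindle checkpoint gene, one of -1.16. Without 5E1 replicate 3, 11 of the 20 fell. These genes are known to be expressed mainly in dividing cells, whichever factor stops division.

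**Figure D4:**
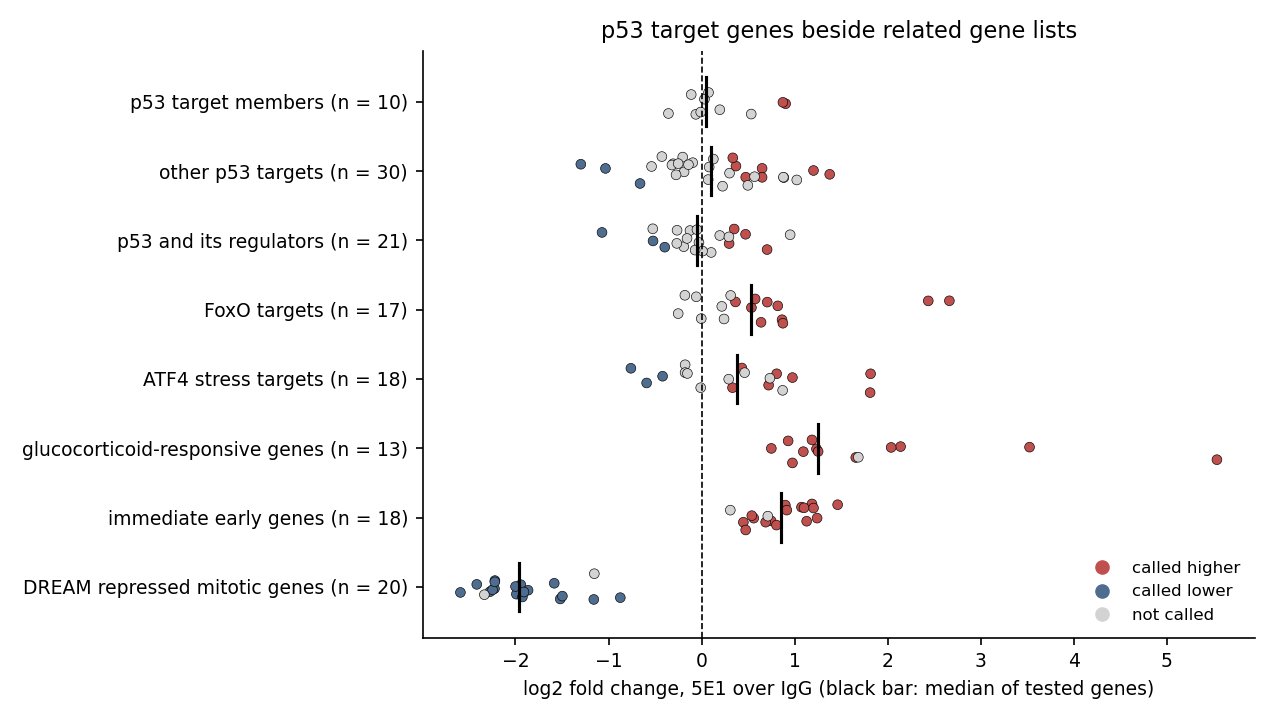
Log2 fold change, 5E1 over IgG, of each tested gene of the p53 target list and of the related lists, coloured by call, with a black bar for the median of each list. The p53 target list is centred near 0 (median 0.053), the glucocorticoid list lies highest (median 1.25) and the mitotic list lowest (median -1.97).

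Markers of other cell types also moved between the groups, and their part in the p53 target values was not tested. For comparison, 12.1% of all tested genes were called higher and 11.1% lower. All 10 tested neutrophil markers of 12 were higher in 5E1, and the 12 summed to 141 to 230 CPM in 5E1 and 15.3 to 20.9 CPM in IgG, led by S100a9 and S100a8. Elane and Mpo, defining neutrophil precursor genes named after their values were seen, had 0 to 6 reads in any library. Of 14 macrophage and monocyte markers 10 were higher, and the 14 summed to 201 to 332 CPM in 5E1 and 120 to 144 CPM in IgG. Of those called, Cd74 was the most abundant. Lyz2, the most abundant of the 14, averaged 119 CPM in 5E1 and 64.3 CPM in IgG and did not pass (edgeR, adjusted p 0.0662). Mesothelial markers were higher in 2 of 6 (127 to 248 CPM in 5E1 and 47.4 to 88.6 CPM in IgG), namely Upk1b and Lrrn4. The second most abundant, Msln, did not pass (edgeR, adjusted p 0.255). Endothelial markers were higher in 2 of 11 (200 to 388 CPM in 5E1 and 176 to 205 CPM in IgG), namely Tek and Plvap. Ramp2, the most abundant, averaged 39.97 CPM in 5E1 and 37.9 CPM in IgG (edgeR, adjusted p 0.654). Epithelial markers were higher in 2 of 13 (499 to 1521 CPM in 5E1 and 451 to 702 CPM in IgG), namely Ager and Hopx, with 5E1 replicate 2 the highest library. The most abundant, Scgb1a1 and Sftpc, did not pass (edgeR, adjusted p 0.659 and 0.246), but Sftpc did without 5E1 replicate 3 (0.0497). Lymphocyte markers summed to at most 9.50 CPM in 5E1 and 4.42 CPM in IgG. Cd79a and Ms4a1, the most abundant of these, did not pass (edgeR, adjusted p 0.293 and 0.308). Lrrn4, Plvap, Ager and Hopx were named after their values were seen. Without 5E1 replicate 2 or IgG replicate 1 or 2, 6 macrophage and monocyte markers were higher. Without 5E1 replicate 3, 5 endothelial and 5 epithelial markers were higher, and 1 epithelial marker was higher without any 1 IgG replicate. A single mesothelial marker was higher without 5E1 replicate 2 or 3 or IgG replicate 1 or 2. Among the 5E1 libraries, replicate 2 was highest in the epithelial, endothelial, mesothelial, lymphocyte and macrophage and monocyte sums, and replicate 1 in the neutrophil sum. Trp53inp1 and Sesn1 were highest in replicate 3. The order of 3 libraries cannot decide what part these cells had.

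**Figure D5:**
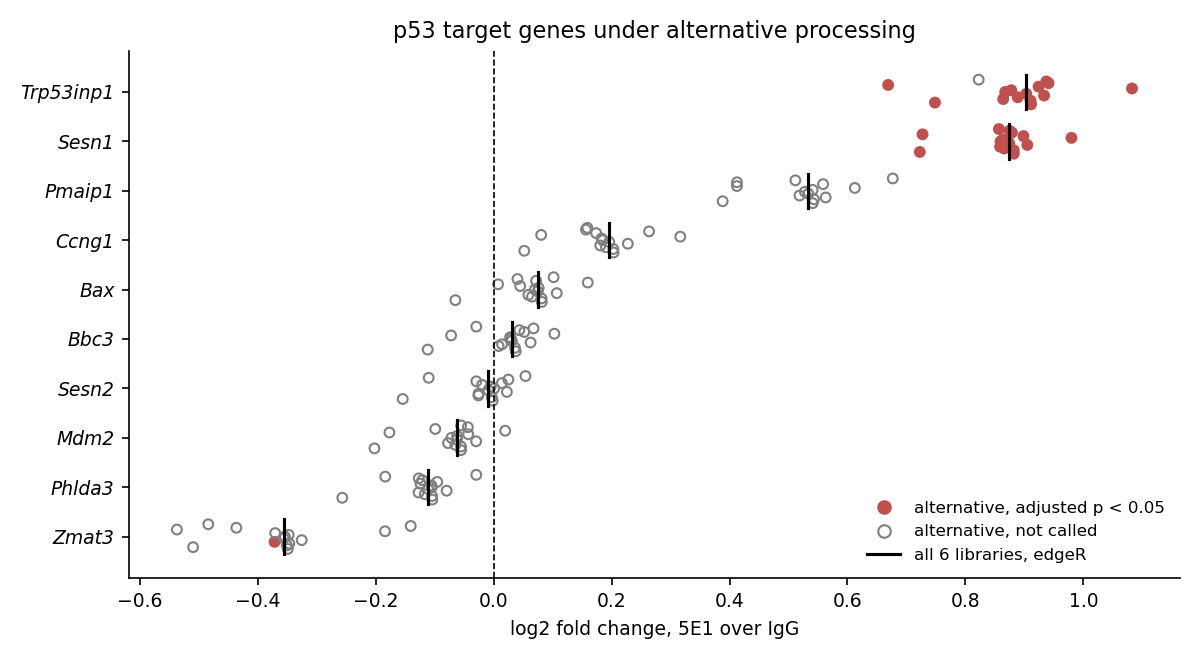
Log2 fold change, 5E1 over IgG, of each p53 target gene under the alternative analyses (circles, filled where the adjusted p is under 0.05) and in the edgeR fit of all 6 libraries (black bar). Sesn1 is called under all 15 alternatives, Trp53inp1 under 14 and Zmat3 under 1.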

How the data were processed

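Sorted EGFP-positive lung cells of 3 5E1 and 3 IgG libraries were profiled. Per the labels, a stranded mRNA kit was used. Each library has a deposited file of raw counts by symbol, with 5 HTSeq summary lines that name no gene (36.4% to 54.7% of reads) and were left out. The submitters' processing notes name build mm10, HTSeq 0.6.0, STAR 2.5.0c, R 3.5.1, DESeq2 1.10.0, Picard 1.126 and bedtools 2.17.0. The annotation, counting strand and duplicate handling are not stated in the sources used here.

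Counts were filtered with filterByExpr (minimum count 10, minimum total 15), scaled by TMM and fitted with edgeR 4.0.16 in R 4.3.3 (robust glmQLFit, glmQLFTest, two-sided, group only). Benjamini-Hochberg adjustment covered all 16198 genes, and calls were made under 0.05. CPM uses TMM-scaled library sizes and RPKM adds GENCODE M21 exon lengths. Log2 fold changes use a prior count of 0.125. Intervals are at 95% from the fit's SE and degrees of freedom. The fit was tested on simulated data. All replicate pairs differed by more than sampling noise (chi-square per degree of freedom 16.3 to 57.8). Alternatives were RLE, library size alone, DESeq2 1.42.0, limma-voom (limma 3.58.1), 2 other filters, no robust estimation, the replicate block, a term for the Y-poor libraries, and each library left out. The p53 target genes, lists and relatives were chosen with earlier results of these data known. Named beside the 10 genes are Trp53, Cdkn1a, Mdm4, Ptch1, Gli1, Hhip and Pdgfra, the 6 genes with the smallest p of either p53 list, 3 of each other pathway list, the 2 most abundant markers of each other cell type, and the relatives.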

Additional observations from a re-analysis of the deposited data

How the results depend on the processing

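Sesn1 kept its direction and call under all 15 alternatives, with log2 fold changes of 0.72 to 0.98. Trp53inp1 kept its direction under all 15 (0.67 to 1.08) and its call under 14, the exception being IgG replicate 3 left out (adjusted p 0.0578). The 5E1-higher count of the 10 p53 targets was 1 to 2 with 1 library left out, and with no low-count filter 1 gene, Zmat3, was called lower. With library size alone the median of the 10 was -0.089, the signs of Bax (-0.065), Bbc3 (-0.11) and Ramp2 (-0.070) reversed, 3274 genes fell, 4 other p53 targets rose and 6 fell, 1 regulator rose and 7 fell, and 1 FoxO-list gene fell. With no low-count filter 5 other p53 targets and 5 regulators fell, and with the strict filter of at least 5 CPM in 3 libraries 1 other p53 target fell. With 1 library left out, 1221 to 1885 genes rose and 1073 to 1819 fell over all genes, 3 to 7 other p53 targets rose and 1 to 4 fell, 1 to 3 regulators rose and 1 to 6 fell, 1 to 3 ATF4-list genes fell and 11 to 20 mitotic genes fell. The causes were not tested. Uncalled values changed sign with 1 library left out: Sesn2 (-0.11 to 0.054), Bbc3 (-0.072 to 0.103), Mdm2 (-0.18 to 0.019), Ccng2 (-0.060 to 0.046), Phlda1 (-0.076 to 0.32), Ms4a1 (-0.17 to 1.28) and Scgb1a1 (-0.44 to 0.80). So did Sesn2 with the strict filter (0.022) and Ccng2 with RLE (0.0032), DESeq2 (0.0036) and the strict filter (0.028). Deviations from the group mean correlated at -0.11 to -0.036 across genes between libraries of the same number. With 3 libraries per group such deviations sum to 0, so these values cannot tell whether those libraries share a litter or day. With the replicate block 1 regulator rose, Sesn2 stood at 0.00076, and the p53 target counts were unchanged at 2 and 0. Low counts limit Pmaip1, with 41 to 132 reads per library.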
